A study of Mus musculus with 6 samples.

Results

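The 10 genes described here are the Notch receptors Notch1, Notch2, Notch3 and Notch4, the ligands Jag1, Jag2, Dll1 and Dll4, and the target genes Hes1 and Hey1. They were matched by symbol to the count table, in which all 10 were found among 55487 gene IDs and all 10 were among the 26596 genes with enough reads to test. The genes were measured by RNA-Seq in rib cages of 6 mouse embryos at 16.5 dpc, 3 that the labels name wild type and that serve as controls (E420, E434, E435) and 3 mutants (E423, E433, E440) labelled Col2-cre;Foxc1-/-;Foxc2-/-. According to the methods, the mutants carried floxed alleles of Foxc1 and Foxc2, which encode forkhead transcription factors, and the controls lacked the cre transgene. The Col2 promoter drives cre in cartilage progenitors, so vessels, muscle, skin and nerve in the same tissue were not the target of the deletion. In the hind limb, the study's reporter cross also showed cre activity in the perichondrium and in the primary ossification center. Each library is 1 embryo. The methods state that littermates were compared, but which embryos shared a litter is not given in the sources used here.

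Notch receptors sit in the membrane and are activated by Jagged or Delta-like ligands on a neighbouring cell. The bound receptor is cut first by an ADAM protease and then by the gamma-secretase complex, and the freed intracellular part joins RBPJ and a Mastermind protein in the nucleus to switch on genes such as Hes1 and Hey1, which encode repressors. In the developing skeleton, Notch signalling is known for holding mesenchymal progenitors back from cartilage and bone differentiation. In vessels, Notch4 and Dll4 are best known from endothelial cells, and Notch3 from the mural cells around them. Foxc1 and Foxc2 are known to act upstream of Notch genes in other embryonic tissues, such as the somites and arteries, and the comparison shows whether RNA of these genes differed in the rib cage.

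Levels are given in CPM, counts relative to the library total after TMM scaling, unless TPM, which also divides by transcript length, is named. The libraries held between 37853988 and 47794799 counts, and 3 counts were worth at most 0.0763 CPM, far below every member. Foxc1 had 23.1, 36.9 and 24.2 CPM among controls (E420, E434, E435) against 3.56, 9.61 and 3.51 CPM among mutants (E423, E433, E440). Foxc2 had 1.99, 4.83 and 3.22 CPM among controls against 0.65, 1.14 and 0.737 CPM among mutants, in the same order. The groups did not overlap for either deleted gene. The libraries differed strongly in tissue makeup. The summed level of 8 chondrocyte markers reached 19400 CPM for E434 and 6963 CPM for E433, whereas the other 4 libraries had 270.2 to 940.8 CPM, so that the rib label's cartilage was thinly represented in those 4. The sum of 8 keratinocyte markers was 17.4 CPM in E434, 3073 CPM in E433, 5076 and 5905 CPM in E420 and E435, and 26590 and 26770 CPM in E423 and E440. The sum of 8 osteoblast markers was lower in mutants, from 7973 to 8364 CPM against 11470 to 16590 CPM in controls, and the sum of 5 hepatocyte markers was 573.1 CPM in E433 and at most 45.0 CPM elsewhere. E420 and E435 were close to each other, and so were E423 and E440. In bulk RNA, fewer cells of a type and less RNA per cell cannot be told apart.

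The regulatory windows of 3 of the 4 ligands are shown because the deleted genes encode DNA-binding factors and because the Jagged paralogs lay on opposite sides of the control level. RefSeq windows from 250 bases before to 50 bases after the start site (GRCm38.p6) were matched by symbol for 8 of the 10 members, 9 windows in all, with no entry for Hes1 and Hey1. The 250 bases before the start sites of Jag1 (minus strand, chr2:137116521-137116770), Jag2 (minus strand, chr12:112929496-112929745) and Dll4 (plus strand, chr2:119325534-119325783) read 5′ to 3′ as follows, with each CG pair in capitals.
Jag1: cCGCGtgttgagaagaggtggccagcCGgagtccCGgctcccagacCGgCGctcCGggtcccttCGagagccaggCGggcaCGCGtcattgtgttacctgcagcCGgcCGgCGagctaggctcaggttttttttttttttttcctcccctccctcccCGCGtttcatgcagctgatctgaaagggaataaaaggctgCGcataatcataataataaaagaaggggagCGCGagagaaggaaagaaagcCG
Jag2: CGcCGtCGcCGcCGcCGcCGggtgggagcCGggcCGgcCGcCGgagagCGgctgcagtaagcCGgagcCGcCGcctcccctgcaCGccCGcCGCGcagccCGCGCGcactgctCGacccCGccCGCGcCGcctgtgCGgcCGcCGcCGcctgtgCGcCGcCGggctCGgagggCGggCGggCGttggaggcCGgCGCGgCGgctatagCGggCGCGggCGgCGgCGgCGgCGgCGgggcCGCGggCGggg
Dll4: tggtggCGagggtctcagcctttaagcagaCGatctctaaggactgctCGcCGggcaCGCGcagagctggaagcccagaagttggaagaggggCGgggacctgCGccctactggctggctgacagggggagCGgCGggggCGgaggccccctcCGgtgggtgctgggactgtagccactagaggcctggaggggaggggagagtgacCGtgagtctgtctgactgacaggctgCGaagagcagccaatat
The printed stretches hold 20 CG pairs for Jag1, 54 for Jag2 and 14 for Dll4, where the median over 32851 such windows was 6. Dll1, not printed, has a pair of windows with 21 and 13 CG pairs. Over the whole window, the share of G and C bases was 55.7% for Jag1, 63.7% for Dll4 and 86% for Jag2, against a median of 52.7% over all windows. On either strand, the RBPJ core TGGGAA was found in 0 of the 9 member windows and in 25.6% of all windows. The forkhead core, searched as TAAACA or TAAATA, was likewise found in 0 of the 9 and in 24.1% of all windows. That says only that these letters are not in these 300 bases.

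By TPM, the scale on which different genes can be compared, Hes1 had the highest mean level over the 6 libraries at 33.7 TPM, followed by Jag2 at 31.6, Notch3 at 22, Notch1 at 13.7, Jag1 at 11.8, Notch2 at 11.5, Hey1 at 10.7, Dll1 at 8.74, Notch4 at 5.74 and Dll4 at 4.58 TPM. Most neighbours in this order could not be ranked, since only 2 of the 9 neighbouring pairs, Jag2 above Notch3 and Notch3 above Notch1, kept their order in all 6 libraries. Dividing the featureCounts counts by the gene length of the table placed Notch3 above Jag2 and moved Notch1 below Notch2 and Jag1. Notch1 is the member whose pipelines differed most. Its ratio of read-end counts to RSEM fragments was 1.59 to 1.69, against 1.89 to 2.18 for the other 9 members. Of its exon bases, 9.76% are shared with genes on the opposite strand, and the authors' counting left out reads on several genes. Dll1, with 20.5% of its exon bases shared in this way, had a ratio of 2.07 to 2.14. The cause of the Notch1 ratio was not tested.

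Among the receptors, Notch3 made up the largest share of the summed receptor TPM in every library, from 39.2% to 43.9%. Notch1 supplied 22.5% to 25.4% of it in controls and 25.4% to 29.5% in mutants, and Notch4 supplied 11.4% to 13% in controls and 7.76% to 10.6% in mutants. Summed receptor TPM was highest in the cartilage-rich libraries of each group, 62.6 TPM in control E434 and 60.9 TPM in mutant E433, and 45.8 to 53.9 TPM in the other 4. Among the ligands, Jag2 supplied 52.3% to 53.2% of the summed ligand TPM in controls and 56.5% to 59.7% in mutants. Jag1 supplied 22.5% to 24.7% in controls and 17.8% to 18.8% in mutants.

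**Figure D1:**
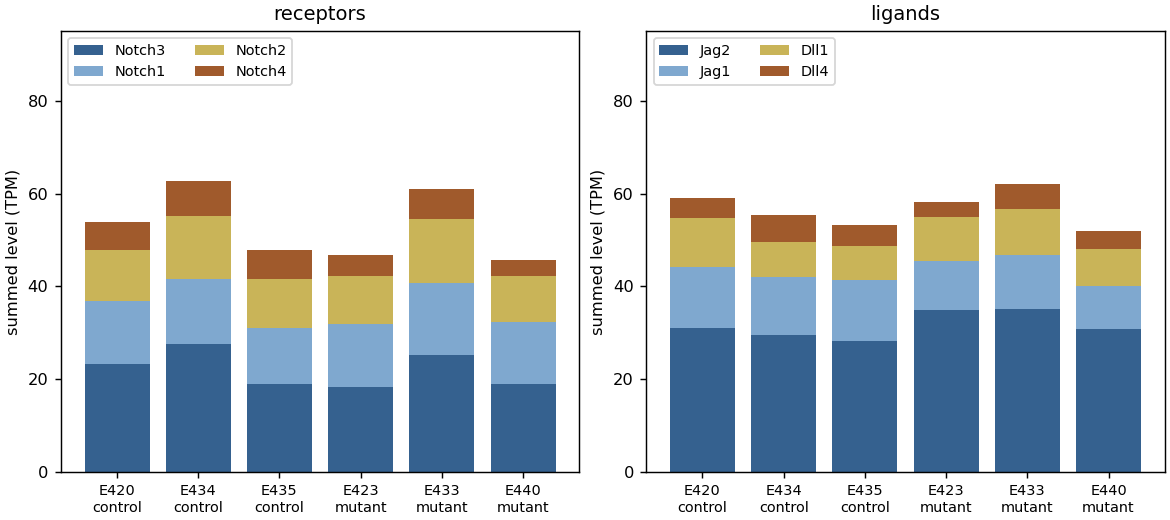
Summed level in TPM (vertical axis) of the 4 receptors (left) and the 4 ligands (right) in each of the 6 libraries, as stacked bars with 1 colour per gene. Notch3 is the largest receptor segment and Jag2 the largest ligand segment in every library, and the Jag1 segment is a smaller share in the 3 mutants.

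The comparison of mutants with controls found 0 of the 10 members past an adjusted p-value of 0.1 in edgeR's quasi-likelihood test, where 24 of 26596 genes (0.0902%) passed. At an unadjusted p-value under 0.05, 1 of the 10 passed (10.6% of all genes did), and DESeq2's Wald test called the same gene, Hey1, and no other member (4.34% of the genes for which it gave an adjusted p-value). The groups did not overlap for 3 of the 10 members, Notch1, Jag1 and Hey1, against 15% of all genes. The fold change was below 0 on the log2 scale for 6 members and above 0 for 4. The median log2 fold change was -0.11 over the members and 0.01 over all genes, and the median size regardless of direction was 0.17 and 0.23, respectively. The 95% confidence interval of the log2 fold change lay within -1 to 1 for all 10 members, as it did for 54.3% of all genes, so a change of more than 2-fold either way lay outside the interval of each member.

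**Figure D2:**
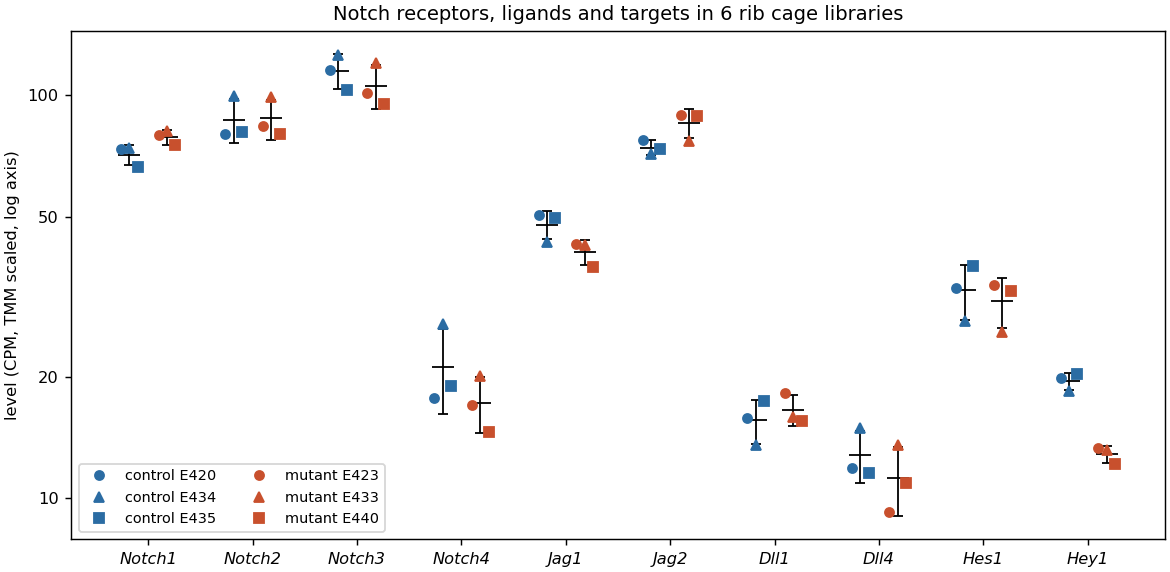
Level in CPM (log axis) of each of the 10 members, with 1 point per library (blue, controls; orange, mutants; triangles, E434 and E433) and bars for the mean ± SD of the 3 libraries of a group. Hey1 shows the widest gap between the groups, and the triangles stand apart from the other libraries of their group for Notch2 and Hes1.

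Of the receptors, Notch1 (ENSMUSG00000026923.15, chr2:26457903-26516663 in GRCm38), expressed in many progenitor cells, had 73.5, 74.0 and 66.5 CPM among controls (E420, E434, E435) against 79.8, 81.5 and 75.1 CPM among mutants (E423, E433, E440). Every mutant value lay above every control value, but the nearest values, 74.0 and 75.1 CPM, almost met. The means were 71.3 ± 4.21 and 78.8 ± 3.28 CPM (SD, n = 3 each), a log2 fold change of 0.14 (standard error 0.076, edgeR adjusted p = 0.544).

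Notch2 (chr3:98013527-98150361), which has overlapping roles with Notch1 in the skeleton, had 80.1, 99.5 and 81.3 CPM among controls against 83.9, 99.0 and 80.2 CPM among mutants. The high value of each group was in its cartilage-rich library, and the groups overlapped throughout. Its log2 fold change of 0.01 had a 95% interval of -0.28 to 0.31 (edgeR adjusted p = 0.985).

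Notch3 (chr17:32120820-32166852), the mural cell receptor, had 115.9, 126.1 and 103.4 CPM among controls against 101.4, 120.7 and 95.1 CPM among mutants. Again E434 and E433 were highest, and the groups overlapped. The log2 fold change was -0.12 (standard error 0.12, edgeR adjusted p = 0.75), and -0.05 without either E434 or E440. Relative to Pdgfrb, a receptor gene of mural and other mesenchymal cells, Notch3 counts stood at 1.38 to 1.78 in controls and 1.74 to 2.07 in mutants, which overlapped narrowly. Pdgfrb had the lowest log2 fold change of the mural markers, -0.365, and Myh11 the highest, 0.344, so this ratio depends on the marker used. The sum of the 7 mural markers was 647.9 to 864.8 CPM in controls and 639.2 to 765.9 CPM in mutants. Of the 7 markers, 0 were called, where 0.0902% of all genes were, and 0 were at zero counts in any library.

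Notch4 (chr17:34564268-34588503), the endothelial receptor, had 17.7, 27 and 19 CPM among controls against 17.1, 20.1 and 14.6 CPM among mutants. E434 stood above the other 5 libraries, which overlapped. The fold change of -0.30 on the log2 scale had the widest interval among the members, -0.78 to 0.18 (edgeR adjusted p = 0.63), and was -0.09 without E434. Relative to Cdh5, which encodes the endothelial junction protein VE-cadherin, Notch4 stood at 0.129 to 0.15 in controls and 0.121 to 0.136 in mutants, which overlapped. That overlap holds for Cdh5 only, and ratios to other endothelial markers were not taken. The log2 fold changes of the 8 markers ran from -0.365 for Emcn to 0.117 for Cldn5, with Cdh5 at -0.156, so a ratio depends on the marker used. The 8 endothelial markers summed to 473.6 to 611.8 CPM in controls and 451 to 565.5 CPM in mutants. Of the 8, 0 were called, where 0.0902% of all genes were, and the count was 0 for the osteoblast list as well. Emcn alone was lower in every mutant (17.5 to 20.7 CPM) than in every control (22.9 to 26.0 CPM).

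Of the ligands, Jag1 (ENSMUSG00000027276.7, chr2:137081456-137116644), found in many tissues including vessels and epithelia, had 50.5, 43.4 and 49.6 CPM among controls (E420, E434, E435) against 42.7, 42.5 and 37.5 CPM among mutants (E423, E433, E440). All mutant values lay below all control values, with E434 at 43.4 CPM barely above E423 at 42.7. The log2 fold change was -0.23 (standard error 0.096, edgeR adjusted p = 0.48). It was -0.03 between the cartilage-rich libraries, E433 against E434, and -0.32 between the other 4.

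Jag2 (ENSMUSG00000002799.6, chr12:112907819-112929776), a ligand also known from the epidermis and muscle, had 77.7, 71.5 and 73.6 CPM among controls against 89.7, 77.2 and 89.1 CPM among mutants. E423 and E440 were high, and E433 lay just under control E420. The means were 74.3 ± 3.16 and 85.3 ± 7.04 CPM (SD, n = 3 each), a log2 fold change of 0.20 (standard error 0.085, edgeR adjusted p = 0.477). The mutant libraries with the highest Jag2, E423 and E440, also had the highest keratinocyte and skeletal muscle marker sums. In the muscle list, Actn2, Ckm, Mylpf and Tnnt3 were highest in these libraries. Myod1, Myog and Pax7 were lowest there, with Myod1 at 52.8 and 50.9 CPM against 68.7 to 75.5 CPM elsewhere. The part of these tissues in the Jag2 values was not tested.

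The ratio of Jag2 to Jag1, taken after both values were seen, was 1.54, 1.65 and 1.48 among controls and 2.1, 1.82 and 2.38 among mutants. The groups did not overlap in this ratio. With 3 embryos against 3, an exact permutation test of a single value cannot give a 2-sided p under 0.1.

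Dll1 (chr17:15367354-15376872), the Delta-like ligand of somites and muscle progenitors, had 15.8, 13.6 and 17.4 CPM among controls against 18.2, 15.9 and 15.5 CPM among mutants. The groups overlapped, with E434 lowest and E423 highest. The log2 fold change of 0.09 had a 95% interval of -0.23 to 0.40 (edgeR adjusted p = 0.843). Of its exon bases, 20.5% are shared with the opposite-strand gene A930024N18Rik, and reads there were not counted.

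Dll4 (chr2:119325784-119335962), the arterial and tip cell ligand, had 11.9, 15.0 and 11.5 CPM among controls against 9.24, 13.6 and 10.9 CPM among mutants. E434 and E433 were the highest of their groups, and the groups overlapped. The log2 fold change was -0.19 (95% interval -0.63 to 0.25, edgeR adjusted p = 0.744), and -0.06 without E434 and -0.07 without E423. Relative to Cdh5, the only endothelial marker used for ratios, it stood at 0.0831 to 0.0906 in controls and 0.0737 to 0.0905 in mutants, which overlapped.

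Of the targets, Hes1 (ENSMUSG00000022528.8, chr16:30064384-30067796), a repressor gene that answers to Notch and to other signals, had 33.3, 27.6 and 37.8 CPM among controls against 33.9, 25.8 and 32.8 CPM among mutants. Here the cartilage-rich libraries were the lowest of each group, and the groups overlapped. The means were 32.9 ± 5.11 and 30.8 ± 4.39 CPM (SD, n = 3 each), a log2 fold change of -0.09 (95% interval -0.47 to 0.28, edgeR adjusted p = 0.856).

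Hey1 (ENSMUSG00000040289.8, chr3:8663359-8667256), a Notch target of vessels and of bone-forming cells that also answers to BMP signals, had 19.9, 18.5 and 20.3 CPM among controls (E420, E434, E435) against 13.3, 13.2 and 12.2 CPM among mutants (E423, E433, E440). The groups lay well apart, with the highest mutant value more than 5 CPM below the lowest control value. The means were 19.6 ± 0.954 and 12.9 ± 0.623 CPM (SD, n = 3 each), a mutant level 0.658 times that of controls. On the log2 scale the difference was -0.60 (standard error 0.097, 95% interval -0.84 to -0.37). It missed the limit in edgeR (unadjusted p = 0.000565, adjusted p = 0.16) and passed it in DESeq2's Wald test (adjusted p = 4.58e-05). The difference was -0.49 between E433 and E434 and -0.66 between the other 4 libraries, so it had 1 direction in the cartilage-rich and the cartilage-poor libraries.

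The ratio of Hey1 to Hes1 was 0.537 to 0.67 in controls and 0.371 to 0.51 in mutants, and the groups did not overlap. This ratio is not separate from the Hey1 values, since the log2 fold change of Hes1 was only -0.09. Relative to Cdh5, Hey1 was 0.103 to 0.159 in controls and 0.0858 to 0.106 in mutants, which overlapped narrowly. Relative to Sp7, the osteoblast transcription factor gene, it was 0.26 to 0.324 in controls and 0.383 to 0.698 in mutants, since Sp7 was 0.4 times its control level. Each ratio rests on 1 marker and would differ with another. Endothelial markers had log2 fold changes from -0.365 (Emcn) to 0.117 (Cldn5), with Cdh5 at -0.156. Osteoblast markers had log2 fold changes from -2.511 (Dmp1) to -0.655 (Col1a1), with Sp7 at -1.32. All 8 osteoblast markers were lower in every mutant than in every control, and their part in the Hey1 difference was not tested. No member reached the spread of 0.5 (SD of log2 CPM over the 6 libraries) above which look-alike genes were to be named. For Hey1, with an SD of 0.337, the search was made after its values were seen. Among 16558 genes with at least 1 CPM, the genes nearest in centred log2 CPM over the 6 libraries were Gm14928, Plekhf1 and Glb1, with root mean square differences of 0.0478, 0.0481 and 0.054.

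**Figure D3:**
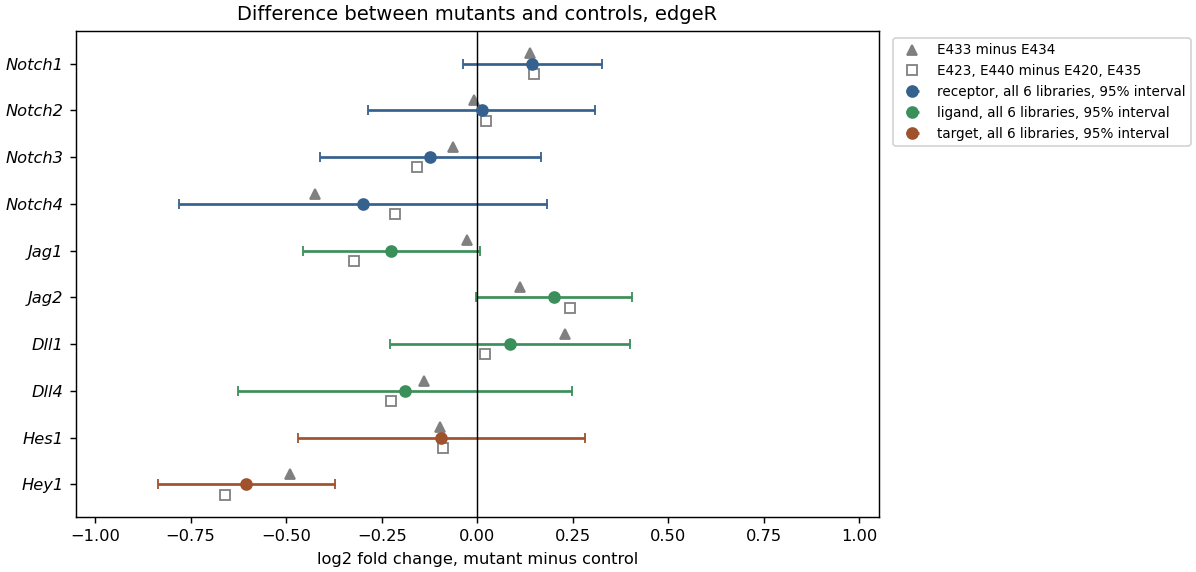
Log2 fold change, mutant minus control, of the 10 members (horizontal axis), as filled points with 95% confidence intervals from edgeR over 6 libraries. Grey triangles give E433 minus E434 and open squares the other 4 libraries. The interval of Hey1, from -0.84 to -0.37, is the only one that does not include 0.

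Over the 6 libraries, the spread of the members was like that of some marker sums and narrower than that of others. The highest library exceeded the lowest by 1.23-fold for Notch1, the least variable member, and by 1.85-fold for Notch4, the most variable. Over the same libraries the summed markers ranged 1.36-fold for endothelial cells, 1.35-fold for mural cells, 1.34-fold for macrophages and 1.37-fold for Schwann cells, 71.8-fold for chondrocytes and 1540-fold for keratinocytes. The sums ranged 1.92-fold for skeletal muscle, 4.58-fold for adipocytes, 2.08-fold for osteoblasts and 20-fold for hepatocytes. A sum follows its most abundant genes, such as Col1a1 with 10650 of the 12250 osteoblast CPM in E420. Col1a1 ranged from 7152 to 14930 CPM. Some less abundant markers ranged more widely, as Spp1 did from 27.3 to 499 CPM and Adipoq from 0.0883 to 53.2 CPM. The 7 thymocyte markers summed to 2.73 to 5.20 CPM, with Cd3d, Cd8a and Ptcra at 0 in at least 1 library.

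**Figure D4:**
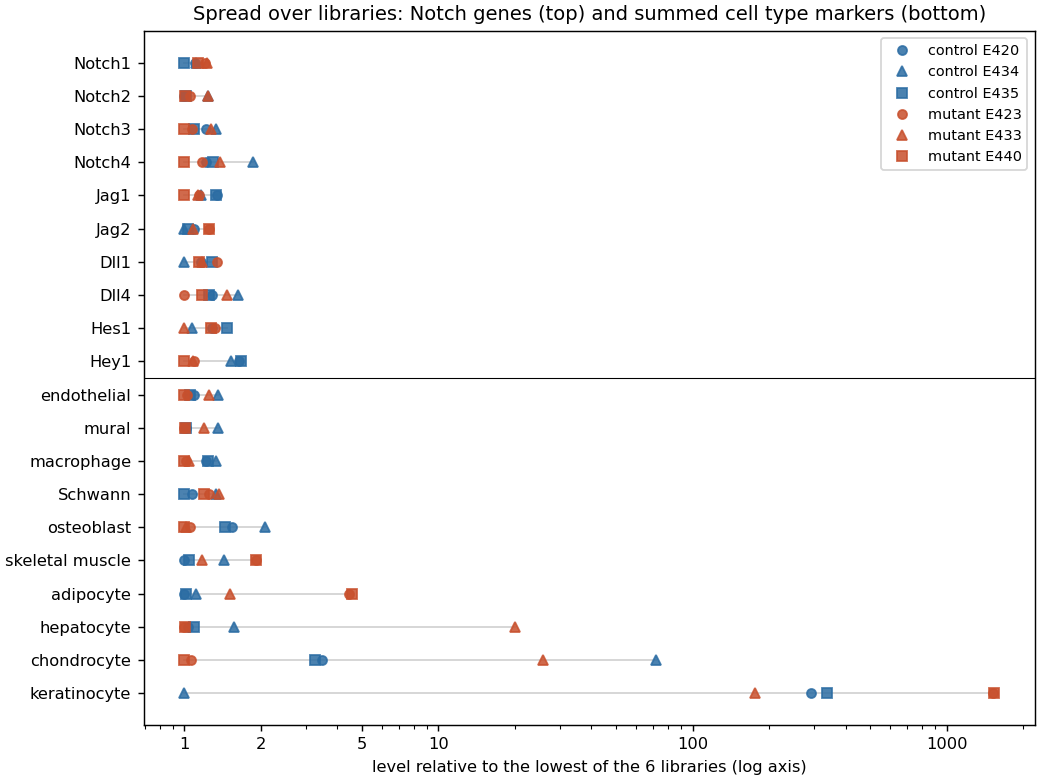
Level of each member (top) and of each summed marker list (bottom) in each library, relative to its lowest library (log axis; blue, controls; orange, mutants). The members stay within 1.85-fold, while the chondrocyte and keratinocyte sums spread 71.8-fold and 1540-fold.

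The calls depended on single libraries. Without E434 alone, 0 of the 10 members and 20 of all genes were called, and without E420, E435, E423 or E440 edgeR called 0 members and 0 genes in all. Without E433, the library that also held the hepatocyte markers, edgeR called 2 of the 10 members, Hey1 (adjusted p = 0.028) and Jag2 (adjusted p = 0.064), where 13.4% of all genes were called. Without E434 and E433 together, it called 6 of the 10, where 37.6% of all genes were called. These were Notch3, Notch4, Jag1 and Hey1 lower and Notch1 and Jag2 higher, with the log2 fold changes 0.15 for Notch1, -0.16 for Notch3, -0.21 for Notch4, -0.32 for Jag1, 0.24 for Jag2 and -0.66 for Hey1. In that fit both groups consist of a pair of close libraries, and differences as small as 0.15 passed.

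A further 58 genes of the pathway, were examined in 7 lists by role. Of these, 55 had enough reads to test, and Hes2, Hes3 and Helt did not. In edgeR 0 of the 55 passed an adjusted p of 0.1, and 7 were lower and 3 higher at an unadjusted p under 0.05, where 10.6% of all genes passed. DESeq2 called 1, Hes6, where it called 4.34% of all genes. The groups did not overlap for 13 of the 55, 8 lower and 5 higher, against 15% of all genes. Their median log2 fold change was -0.09, and 49 of the 55 had a 95% interval within -1 to 1, as did 54.3% of all genes.

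The lists of the signal-sending and receiving cell held no call. Of the 4 other ligands, Dner, a ligand of neurons, had 4.17, 3.79 and 3.75 CPM among controls (E420, E434, E435) against 1.92, 3.78 and 1.49 CPM among mutants (E423, E433, E440), so that E433 lay among the controls. Dll3, a Delta-like protein that acts inside the cell, had only 2 to 10 counts per library. The imprinted gene Dlk1, named after its values were seen, was by far the most abundant at 2291 to 3125 CPM, with a log2 fold change of -0.03. Among the 6 glycosylation genes, Poglut1, which adds glucose to the receptor, had 38, 39.2 and 36.6 CPM among controls against 27, 35.6 and 25.5 CPM among mutants, without overlap (log2 fold change -0.37, edgeR adjusted p = 0.44). Pofut1, which adds fucose, had a log2 fold change of -0.18 (edgeR adjusted p = 0.697). The fringe genes Lfng, Mfng and Rfng, whose enzymes extend that fucose, had log2 fold changes of -0.06, -0.09 and 0.15, and were chosen after their values were seen.

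Of the 10 genes of receptor cleavage, Adam10, which makes the ligand-induced cut, had 164.6, 160.6 and 158.1 CPM among controls against 139.2, 147.5 and 135.4 CPM among mutants. The groups did not overlap, and the log2 fold change was -0.19 (edgeR adjusted p = 0.429). Aph1c, a gamma-secretase subunit with a near-identical neighbour gene in mice, had 2.82 to 3.30 CPM in controls and 2.20 to 2.65 CPM in mutants (edgeR adjusted p = 0.455). Among the 13 genes of ligand endocytosis and receptor turnover, Neurl1b, a ubiquitin ligase gene, had 8.93, 10.6 and 7.61 CPM among controls against 12.7, 12.6 and 11.4 CPM among mutants. Its groups lay apart, with a log2 fold change of 0.44 (edgeR adjusted p = 0.419). Dtx1, a Deltex ubiquitin ligase gene, had a log2 fold change of -0.33 (edgeR adjusted p = 0.607).

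In the nucleus, Rbpj itself, given although the naming rule did not select it, had a log2 fold change of 0.00 with a 95% interval of -0.28 to 0.29. Maml1, a Mastermind coactivator, had 45 to 50.4 CPM in controls and 41.3 to 43.7 CPM in mutants (log2 fold change -0.19, edgeR adjusted p = 0.464), and Maml2 overlapped between groups at -0.19. Among the 9 corepressor genes, Hdac1, which encodes a histone deacetylase, had 74.2, 62.9 and 77.9 CPM among controls against 50.9, 63.6 and 55.3 CPM among mutants, overlapping only through E434 and E433 (edgeR adjusted p = 0.428). L3mbtl3, a partner of RBPJ, had 30.4 to 32 CPM in controls and 27.1 to 28.2 CPM in mutants (log2 fold change -0.18, edgeR adjusted p = 0.468).

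Of the remaining Hes and Hey genes, Hes6, which encodes a Hes family member known from muscle precursors, had 56.4, 55.2 and 61.3 CPM among controls against 41.7, 49.1 and 41.4 CPM among mutants. The groups did not overlap, and the log2 fold change was -0.39 (edgeR adjusted p = 0.347, DESeq2 adjusted p = 0.0572). Relative to Myod1, the myogenic factor gene, Hes6 stood at 0.731 to 0.837 in controls and 0.714 to 0.814 in mutants, which overlapped. Hes5, a Notch target best known from neural progenitors, had 7, 10 and 7 counts in the controls and 33, 12 and 27 counts in the mutants. Its groups did not overlap, yet E433 was only 2 counts above E434 (log2 fold change 1.6, standard error 0.468, edgeR adjusted p = 0.389). Hey2, the arterial paralog of Hey1, had 5.29, 4.74 and 5.71 CPM among controls against 3.25, 5.24 and 2.95 CPM among mutants, with E433 among the controls (edgeR adjusted p = 0.544). Heyl, which is expressed in mural cells, had a log2 fold change of -0.11. Nrarp, a feedback inhibitor of Notch, had 15.6, 5.78 and 16.8 CPM among controls against 18.1, 7.96 and 17.1 CPM among mutants, low in the cartilage-rich library of each group. Hey2, Heyl and Nrarp were chosen after their values were seen.

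**Figure D5:**
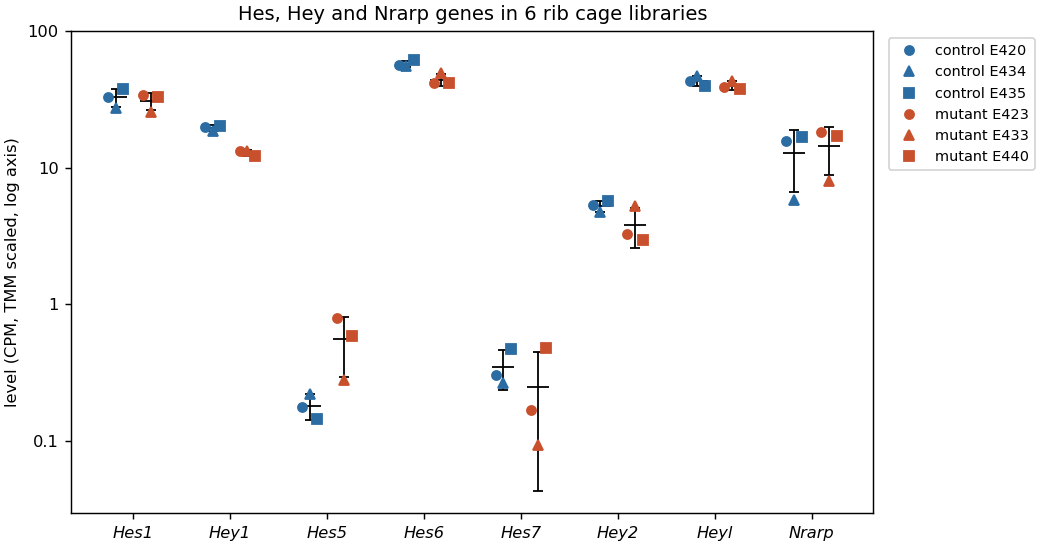
Level in CPM (log axis) of Hes1, Hey1 and 6 other target genes in each library (blue, controls; orange, mutants; triangles, E434 and E433), with the mean ± SD of 3 libraries per group. Hey1 and Hes6 are lower and Hes5 is higher in each mutant, while Hey2 overlaps through E433 and Nrarp follows the triangles.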

How the data were processed

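RNA of rib cages from 3 control and 3 mutant embryos at 16.5 dpc was sequenced, and groups were taken from the sample labels. Per the submitters' processing notes and the file header, the authors aligned reads to GRCm38 with HISAT2 2.1.0 and deposited raw counts per gene from featureCounts 1.6.0, with each read end counted singly, strand not used and reads on several genes or places left out. From STAR 2.7.6 and RSEM 1.2.31, expected counts and TPM values per gene were deposited too. Those TPM values were used for levels between genes, and the expected counts, rounded to whole numbers, as an alternative. A pair of tables with the authors' own fold changes and p-values (DESeq2 1.26.0) was not used, nor were their 12 columns of per-sample values.

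A gene was kept where its counts summed to 10 or more, counts were TMM-scaled, and edgeR 4.0.16 (R 4.3.3) gave the main test (quasi-likelihood), with Benjamini-Hochberg adjustment over all genes tested and a limit of 0.1. DESeq2 1.42.0 served as an alternative, besides its size factors, other filters, a robust fit and leaving out libraries. The steps were tested on simulated data. Amplified copies of a fragment cannot be told apart, so the value of 3 counts in CPM covers counting error only. P-values set the difference between groups against the spread between these embryos, which includes their unequal tissue makeup. Both tools estimate that spread partly from other genes. The members, pathway lists and marker lists were chosen with earlier results of these data known. Named pathway genes are those with an adjusted p under 0.1 by edgeR or DESeq2 and the 2 lowest unadjusted p-values of each list, except where stated. Promoter windows and symbols came from RefSeq and GENCODE tables on GRCm38.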

Additional observations from a re-analysis of the deposited data

How the results depend on the processing

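Of 140 alternative fits of single members, 125 kept the direction and the side of the limit, 9 passed it and 6 changed sign. DESeq2's Wald test called 1 member, 1 other pathway gene and 950 genes in all, against 0, 0 and 24. Leaving out 1 library at a time gave 0 to 2 members, 0 to 11 other pathway genes and 0 to 3463 genes in all, the high values all without E433. Without E434 and E433 together the counts were 6, 31 and 9425. Over all genes, 48 were called with no low-count filter, 54 with the robust fit and 0 at a limit of 0.05. Summing the close libraries (E420 with E435, E423 with E440), an alternative chosen after the data were seen, also called 0 genes. The sign of the log2 fold change turned for Notch2 without E420 (-0.04), E435 (-0.04) or E433 (-0.08), for Dll1 without E434 (-0.005), and for Hes1 without E435 (0.02) or E433 (0.024). Leaving out 1 library at a time gave -0.08 to 0.12 for Notch2, -0.005 to 0.17 for Dll1 and -0.21 to 0.024 for Hes1, as well as -0.42 to -0.09 for Notch4, -0.22 to -0.05 for Notch3, -0.34 to -0.06 for Dll4, 0.09 to 0.18 for Notch1, -0.29 to -0.17 for Jag1 and 0.16 to 0.27 for Jag2. Of these fits with 1 library left out, only that of Jag2 without E433 passed the limit (log2 fold change 0.27, edgeR adjusted p = 0.064). The log2 fold change of Hey1 ran from -0.66 to -0.56 over its alternatives, and its adjusted p from 2.79e-06 to 0.9998. With featureCounts counts per length, 3 rather than 2 neighbouring pairs kept their order in all 6 libraries. The causes of these shifts were not tested. No paired analysis was possible because the sources used here do not say which embryos shared a litter, and the replicate numbers only follow the order of the records. Groups of 3 libraries of unequal tissue makeup limit what can be called, and levels of Hes5 and Dll3 rest on few counts.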
